A study of Mus musculus with 6 samples.

Results

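The genes of the NF-kappaB system were examined in fat-tissue macrophages of mice on a high-fat diet (HFD) and on normal chow (NCD): the subunits Nfkb2, Rel, Rela and Relb, the inhibitors and feedback genes Nfkbia, Nfkbie, Nfkbiz and Tnfaip3, and the kinase gene Ikbke. These are the 9 measured genes of 10 that were listed by name, out of 30142 genes tested; Nfkb1 was not analysed here. Each was read by 1 transcript cluster, the set of probes the array holds for a gene, and the members are those on a list of names, with no threshold on a value. The groups were 3 pools of macrophages from mice on a diet with 60% fat (HFD1 to HFD3, 10 mice a pool) and 3 pools from mice on normal chow (NCD1 to NCD3, 20 mice a pool). All mice were male C57BL/6J, 6 weeks old at the start of the 16 weeks of diet and 22 weeks old at its end. The cells came from the epididymal fat, after collagenase digestion and magnetic selection with an antibody to F4/80, the antigen of Adgre1. Each pool gave 1 Affymetrix array from 100 ng of total RNA, so pools and not mice are the unit of replication. Values are log2 expression as the authors deposited it. A gene counts as called where its adjusted p from limma, over all genes tested, was below 0.05. Differences are log2 HFD minus NCD, and ± marks the standard error beside a difference and the SD (n = 3 arrays) beside a mean.

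NF-kappaB proteins are dimers of Rel-family subunits that inhibitor (IkappaB) proteins hold in the cytoplasm. Signals from Toll-like, interleukin-1 or tumour necrosis factor receptors activate IkappaB kinases, the inhibitor is phosphorylated and degraded, and the dimers enter the nucleus and switch on cytokine, chemokine and survival genes. Several inhibitors are themselves targets, which makes their RNA a textbook readout of recent activation in macrophages. Much of the control acts on protein, so RNA levels do not measure the activity of the subunits.

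Because the inhibitors are known as targets of the factor they restrain, the promoters of 3 of them and of Rel are shown, beside that of Ikbke, the one member called between diets, with the NF-kappaB consensus motif (10 letters, with ambiguous positions, searched on both strands) in capitals. Sequences are from RefSeq on GRCm38.p6, which need not be the build behind the arrays, and run 5′ to 3′ on the strand of the gene. Each covers the 250 bases before a start site listed for the gene. The Ikbke window reaches into the span of the gene, which begins at base 131279601 on its strand. Overlapping matches merge into 1 run of capitals.
Nfkbia promoter, chr12:55492648-55492897, minus strand: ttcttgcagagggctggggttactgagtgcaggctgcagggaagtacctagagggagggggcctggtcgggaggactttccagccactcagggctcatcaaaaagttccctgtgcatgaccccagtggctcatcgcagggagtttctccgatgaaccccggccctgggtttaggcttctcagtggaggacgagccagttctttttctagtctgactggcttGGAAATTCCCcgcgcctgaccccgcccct
Nfkbie promoter, chr17:45555450-45555699, plus strand: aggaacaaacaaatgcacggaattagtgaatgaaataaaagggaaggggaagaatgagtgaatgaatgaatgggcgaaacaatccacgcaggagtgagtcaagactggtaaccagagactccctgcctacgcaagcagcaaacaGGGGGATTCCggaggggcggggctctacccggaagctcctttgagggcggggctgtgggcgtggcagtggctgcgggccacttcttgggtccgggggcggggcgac
Tnfaip3 promoter, chr10:19015411-19015660, minus strand: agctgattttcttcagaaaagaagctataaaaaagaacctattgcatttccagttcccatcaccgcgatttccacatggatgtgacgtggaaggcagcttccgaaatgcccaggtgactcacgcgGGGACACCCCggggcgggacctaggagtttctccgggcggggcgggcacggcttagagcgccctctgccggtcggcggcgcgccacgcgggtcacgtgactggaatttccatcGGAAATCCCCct
Rel promoter, chr11:23770970-23771219, minus strand: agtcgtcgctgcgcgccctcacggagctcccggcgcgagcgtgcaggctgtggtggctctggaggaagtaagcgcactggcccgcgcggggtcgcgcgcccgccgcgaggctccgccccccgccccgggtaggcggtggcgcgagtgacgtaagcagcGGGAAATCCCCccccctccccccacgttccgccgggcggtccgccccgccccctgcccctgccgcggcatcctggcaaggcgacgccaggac
Ikbke promoter, chr1:131279564-131279813, minus strand: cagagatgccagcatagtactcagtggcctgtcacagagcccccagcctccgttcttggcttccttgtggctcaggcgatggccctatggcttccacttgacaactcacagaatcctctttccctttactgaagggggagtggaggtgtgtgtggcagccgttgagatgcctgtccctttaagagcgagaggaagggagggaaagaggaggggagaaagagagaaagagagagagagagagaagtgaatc

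Of the 7 members with a promoter in the table, 5 held the motif in at least 1 such window, beside 8.23% of the 27025 genes with a promoter there. Nfkbia had GGAAATTCCC, which reads as the motif on the opposite strand, 20 to 29 bases before the start. Nfkbie had GGGGGATTCC at 97 to 106 bases, and Tnfaip3 had GGGACACCCC at 116 to 125 bases and GGAAATCCCC at 3 to 12 bases. Rel had the overlapping pair GGGAAATCCC and GGAAATCCCC between 82 and 92 bases before its start. Nfkb2, which has 3 start sites in the table, had GGGAATTCCC, GGAATTCCCC and GGGGCTTTCC before the first of them. Rela and Ikbke had no match in these windows, which says only that those letters are not there. Among the lists used below, the motif lay before 15 of 37 NF-kappaB target genes, 7 of 33 other pathway genes, 3 of 9 immediate early genes, 1 of 5 endothelial markers and 0 of 5 macrophage markers with a promoter in the table. A match of letters is not a shown binding site.

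Of the 9 members, 1 was called higher in HFD macrophages (Ikbke), 0 were called lower and 8 were not called. Over all 30142 genes 7.83% were called, 4.96% higher and 2.87% lower, so 1 called of 9 is close to the background share. The median difference of the members was −0.09, beside 0.01 over all genes. In 3 of the 9, Relb, Nfkbie and Ikbke, the HFD and NCD arrays did not overlap, beside 30.6% of all genes. All HFD arrays were above all NCD arrays in 1 member (17.6% of all genes) and below them in 2 (13% of all genes). All 9 had a larger SD over the NCD arrays than over the HFD arrays, beside 64.0% of all genes and 76.2% of the 15747 genes with a mean above background.

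**Figure D1:**
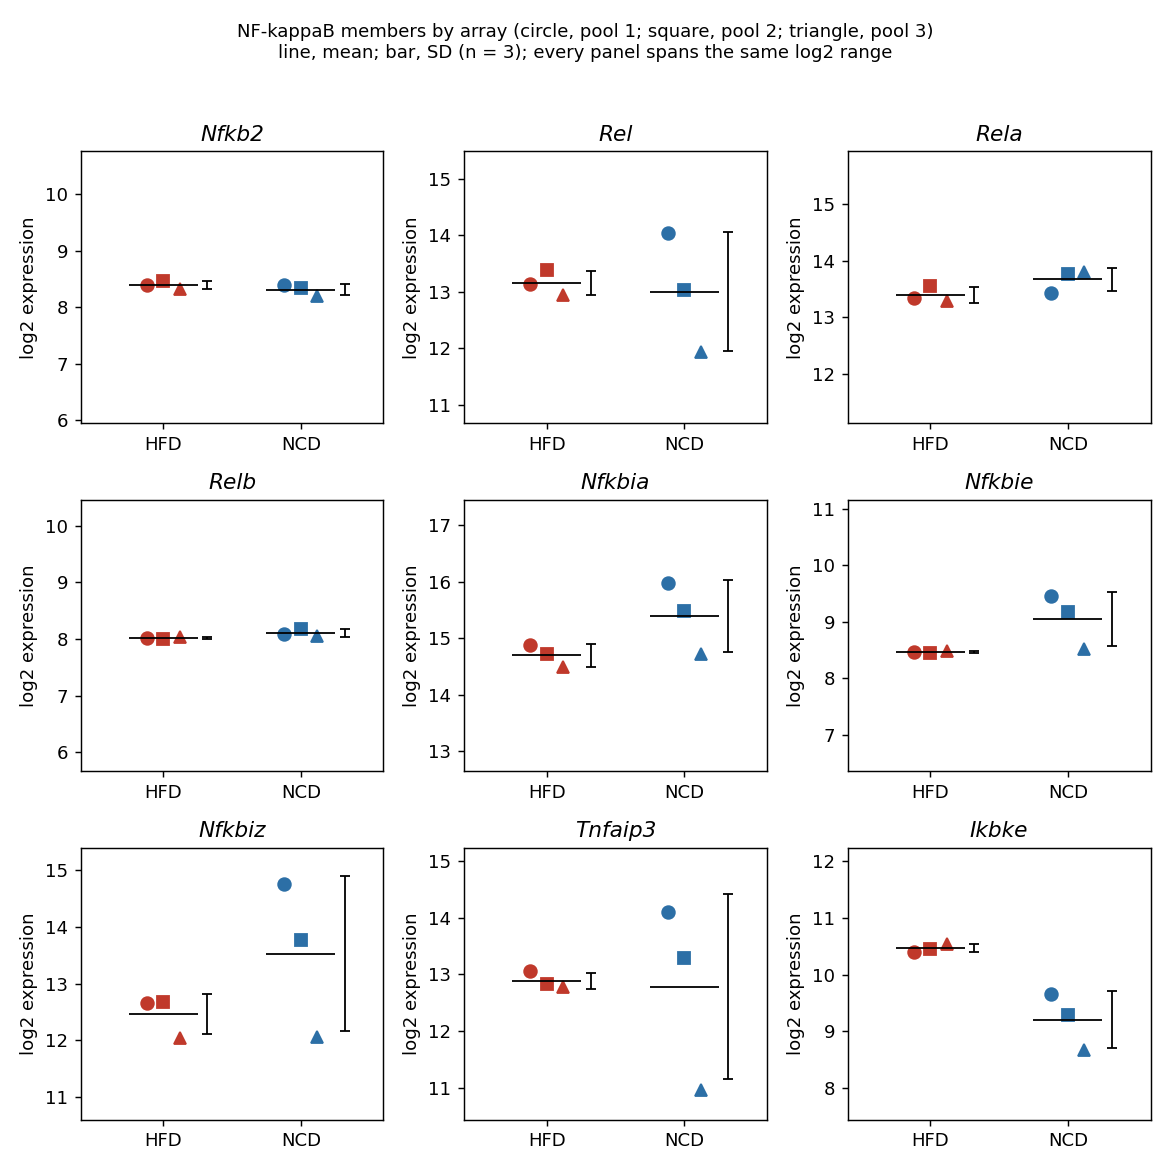
Log2 expression (y axis, the same span in every panel) of each member on the 3 HFD and the 3 NCD arrays, with the mean (line) and SD (bar, n = 3). The HFD arrays lie above all NCD arrays for Ikbke, while for Rel and Tnfaip3 they lie between the highest and the lowest NCD array.

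Ikbke encodes IKK-epsilon, an IkappaB kinase-related enzyme that, with Tbk1, acts on interferon regulatory factors, and it is itself known as an inducible gene in macrophages. It stood at 10.41, 10.46 and 10.55 on HFD1 to HFD3, against 9.66, 9.28 and 8.67 on NCD1 to NCD3. Every HFD array was higher than every NCD array, and the HFD arrays lay within 0.14 of one another, against a range of 0.99 over the NCD arrays. The means were 10.47 ± 0.07 in HFD and 9.20 ± 0.50 in NCD macrophages, a 2.41-fold rise (1.27 ± 0.25, adjusted p = 0.0307). The difference was between 1.00 and 1.50 in the fits without 1 array. The call was kept without NCD1 (1.50, adjusted p = 0.00813) and without NCD3 (1.00, adjusted p = 0.0266). It was lost without NCD2 (1.31, adjusted p = 0.102), HFD1 (1.30, adjusted p = 0.0801), HFD2 (1.27, adjusted p = 0.119) and HFD3 (1.23, adjusted p = 0.130).

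The genes whose values over the 6 arrays were nearest to those of Ikbke, by the root mean square difference of values centred per gene, were Sirpa (0.03 log2), Lrp1 (0.06), Nckap1l (0.06), Xylt1 (0.08) and Lcp1 (0.08). On the same measure Ikbke itself deviated from its own mean by 0.70. Sirpa encodes the inhibitory receptor for CD47, Lrp1 a large endocytic receptor, Nckap1l a blood-cell subunit of the actin-regulating WAVE complex and Lcp1 the leukocyte actin bundler L-plastin. Their differences, 1.21 to 1.30, and their calls follow from having been chosen for values like those of Ikbke. Among the macrophage markers, Cd68 was higher by 1.20 ± 0.22 (adjusted p = 0.0267) and the Fc receptor gene Fcgr1 by 1.43 ± 0.21 (adjusted p = 0.0150), while the efferocytosis receptor gene Mertk fell by 0.49 (adjusted p = 0.0387). The other 4 of the 7 markers were not called, and all 7 had means above background. Adgre1, the gene of the selected antigen, was at 16.54, 16.55 and 16.70 on HFD1 to HFD3 and at 16.08, 15.93 and 15.05 on NCD1 to NCD3 (0.91 ± 0.27, adjusted p = 0.0924). The summed level of the 7 macrophage markers was 19.68 to 19.77 log2 in HFD and 19.20 to 19.64 in NCD arrays, lowest on NCD3 as Ikbke was. In pooled cells, more cells of a type and more RNA per cell cannot be told apart, and the part of the macrophage markers in the Ikbke difference was not tested.

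The related kinase genes did not pass the test. Tbk1, the closest relative of Ikbke in function, stood at 12.54, 12.58 and 12.49 on HFD1 to HFD3, against 12.37, 12.19 and 12.17 on NCD1 to NCD3, with no overlap (0.29 ± 0.11, adjusted p = 0.162). Tank, a scaffold of both kinases, was at 0.66 ± 0.27 (adjusted p = 0.192). Of the canonical kinase complex, the catalytic subunit Ikbkb was at 0.06 ± 0.16 (adjusted p = 0.870) and the regulatory subunit Ikbkg at 0.23 ± 0.09 (adjusted p = 0.167). Chuk was not analysed here. Map3k14, the kinase that drives the non-canonical route, was at 0.08 ± 0.15 (adjusted p = 0.800).

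None of the 4 measured subunits was called by limma. Rela, the main transactivating subunit of the canonical dimer, stood at 13.34, 13.54 and 13.28 on HFD1 to HFD3, against 13.43, 13.76 and 13.81 on NCD1 to NCD3. The groups overlapped through HFD2 and NCD1, and the difference was −0.28 ± 0.14 (adjusted p = 0.300, 95% interval −0.62 to 0.06). Rel encodes c-Rel, the subunit tied to interleukin-12 family genes in myeloid cells. It was at 13.14, 13.38 and 12.95 on HFD1 to HFD3, against 14.04, 13.03 and 11.94 on NCD1 to NCD3. The chow pools spanned 2.11 log2 and enclosed all HFD arrays. The Rel difference was 0.15 ± 0.49 (adjusted p = 0.892), with a 95% interval of −1.02 to 1.33. It was 0.67 without NCD1 and −0.38 without NCD3, so its direction rests on single chow pools.

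The subunits of the non-canonical pair were the most even of the members across arrays. Nfkb2, which encodes the precursor that is processed to a DNA-binding subunit, stood at 8.40, 8.47 and 8.32 on HFD1 to HFD3, against 8.40, 8.34 and 8.21 on NCD1 to NCD3. Its difference was 0.08 ± 0.10 (adjusted p = 0.692), with a 95% interval of −0.16 to 0.32. Relb, the partner of that subunit, was at 8.01, 8.004 and 8.03 on HFD1 to HFD3, against 8.09, 8.18 and 8.04 on NCD1 to NCD3. All HFD arrays were below all NCD arrays, but the gap between the nearest ones was small, and the difference of −0.09 ± 0.09 was not called (adjusted p = 0.607, 95% interval −0.30 to 0.12).

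**Figure D2:**
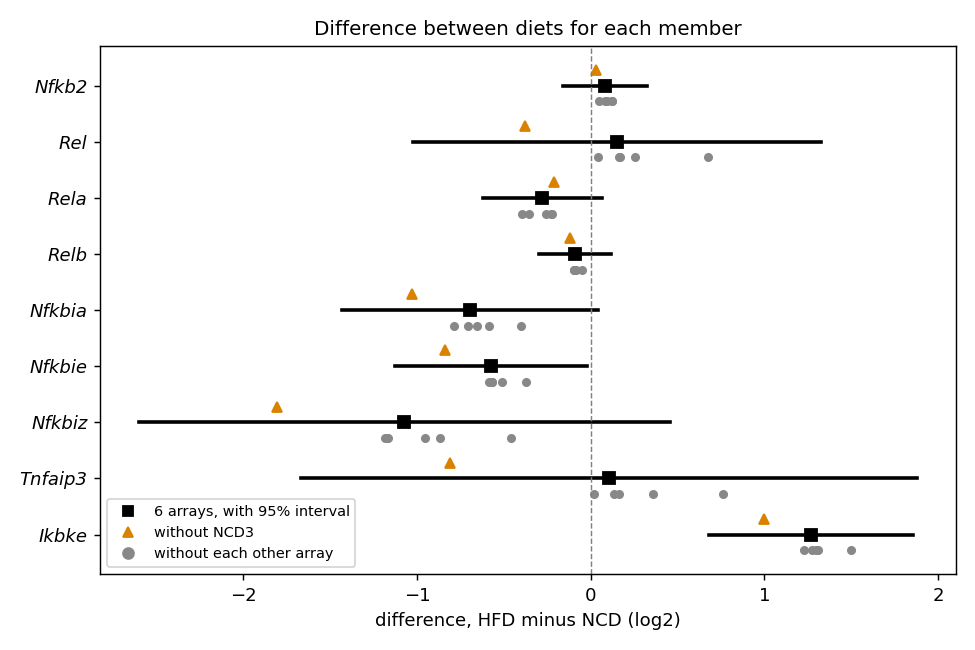
Difference of each member between diets (x axis, log2 HFD minus NCD) with its 95% interval from limma over 6 arrays (square and line), and the difference without each array in turn. Leaving out NCD3 (triangles) moves Nfkbia to −1.03, Nfkbie to −0.84 and Nfkbiz to −1.81, and turns Rel and Tnfaip3 below 0.

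The inhibitors Nfkbia, Nfkbie and Nfkbiz had lower means in HFD macrophages, and none was called with all 6 arrays. Nfkbia encodes IkappaB-alpha, the inhibitor that is degraded and resynthesised fastest. It stood at 14.89, 14.73 and 14.49 on HFD1 to HFD3, against 15.98, 15.48 and 14.73 on NCD1 to NCD3. NCD1 and NCD2 were above all HFD arrays, and NCD3 lay among them. The means were 14.70 ± 0.20 in HFD and 15.39 ± 0.63 in NCD macrophages (−0.69 ± 0.31, adjusted p = 0.230, 95% interval −1.43 to 0.04). Without NCD3 the difference was −1.03 ± 0.20 and passed the test (adjusted p = 0.0428), and without NCD1 it was −0.40 (adjusted p = 0.370).

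Nfkbie encodes IkappaB-epsilon, a slower inhibitor that is known to be induced with a delay. It was at 8.46, 8.45 and 8.49 on HFD1 to HFD3, against 9.45, 9.17 and 8.51 on NCD1 to NCD3. The HFD arrays lay within 0.04 of one another and below every NCD array, though NCD3 was only just above them. The difference was −0.57 ± 0.23 (adjusted p = 0.191), and −0.84 ± 0.12 without NCD3 (adjusted p = 0.0252). Nfkbie and Nfkbia were the inhibitor pair nearest to each other over the 6 arrays, with a root mean square difference of 0.17 log2.

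Nfkbiz encodes IkappaB-zeta, an atypical nuclear member of the family that is needed for a secondary set of targets such as Il6. It stood at 12.65, 12.68 and 12.05 on HFD1 to HFD3, against 14.76, 13.77 and 12.06 on NCD1 to NCD3. NCD3 was level with HFD3 and below the other HFD arrays. The difference was −1.07 ± 0.64 (adjusted p = 0.371), with a 95% interval of −2.60 to 0.46. Without NCD3 it was −1.81 ± 0.34 (adjusted p = 0.0434), and without NCD1 it was −0.46 (adjusted p = 0.639).

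Tnfaip3 encodes a ubiquitin-editing enzyme that shuts off signalling to the IkappaB kinases. It was at 13.05, 12.83 and 12.77 on HFD1 to HFD3, against 14.10, 13.29 and 10.95 on NCD1 to NCD3. The chow pools spanned 3.15 log2, the widest range among the members, against 0.28 over the HFD pools, and they enclosed all HFD arrays. The difference was 0.11 ± 0.74 (adjusted p = 0.954), with a 95% interval of −1.67 to 1.88, which leaves its direction undetermined. It was 0.76 without NCD1 and −0.81 without NCD3 (adjusted p = 0.131).

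The spread of the chow pools had 1 order in most members: NCD1 was highest and NCD3 lowest in 7 of 9, that is in Nfkb2, Rel, Nfkbia, Nfkbie, Nfkbiz, Tnfaip3 and Ikbke. This order was seen in the values first and then counted elsewhere. It held in 24.0% of all genes, 20 of 42 other pathway genes, 32 of 49 target genes and 10 of 12 immediate early genes. Over the NCD arrays 4 members (Rel, Nfkbia, Nfkbiz and Tnfaip3) ranged over more than 1 log2 unit, beside 6.65% of all genes and 12.1% of genes above background. Over the HFD arrays 0 members did, beside 1.65% of all genes and 2.67% of genes above background. The SD of Tnfaip3 over the NCD arrays was at the 99.9th percentile of all genes, that of Nfkbiz at the 99.6th, that of Rel at the 98.8th and that of Nfkbia at the 95.6th. Those of Relb (percentile 20.1) and Nfkb2 (percentile 32.5) were below the middle of all genes. Since limma pools the spread of both diets, the wide chow values enter the standard error of every difference above.

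For the member Nfkbia, the 5 nearest genes by the same measure were Gm4788 (0.06 log2), Smpdl3b (0.09), Efcab5 (0.11), Clec2i (0.12) and Cgnl1 (0.12), against a deviation of 0.52 of Nfkbia from its own mean. None of these was called over the 6 arrays, which follows, as for Ikbke, from how they were chosen. Smpdl3b is a lipid-modifying enzyme that is known to dampen Toll-like receptor signalling in macrophages.

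Other cell types and states in the selected fraction differed between the chow pools as well. The mean deviation of the 4 inhibitor and feedback genes from their own means was −0.15, −0.23 and −0.46 on HFD1 to HFD3 and 1.16, 0.52 and −0.84 on NCD1 to NCD3. That of 12 measured immediate early genes, which are also known to respond to tissue digestion, was −0.47, −0.43 and −0.80 on the HFD arrays and 1.03, 0.77 and −0.10 on the NCD arrays. Of these 12 genes, 7 were called lower in HFD macrophages, 0 higher and 5 were not called (median −1.07). Over all genes 2.87% were called lower. Among the 7 were Fosb (−3.00 ± 0.33, adjusted p = 0.00734), Jun (−2.07 ± 0.27, adjusted p = 0.0111) and Ier2 (−2.05 ± 0.27, adjusted p = 0.0108). Of the 5 not called, Egr2 (0.88) and Atf3 (0.35) had higher means in HFD, and Egr3, Nr4a1 and Zfp36 lower ones. The 8 measured endothelial markers ran the other way over the chow pools, with mean deviations of −0.04, −1.45 and −1.48 on the HFD arrays, against −0.51, 1.49 and 1.99 on the NCD arrays. Their summed level was 15.28 to 16.62 log2 in HFD and 16.05 to 18.28 in NCD arrays, all 8 had means above background, and none was called. For the 7 smooth muscle and pericyte markers the sum was 12.03 to 13.56 in HFD and 15.50 to 17.47 in NCD arrays, again highest on NCD3, and 5 of the 7 were called lower. Fibroblast markers were called higher in 4 of 5 (summed level 13.02 to 13.82 in HFD and 12.94 to 13.79 in NCD arrays). The other, Dcn, which had the highest mean of the 5, was not called (−0.88 ± 0.29, adjusted p = 0.126). All its HFD arrays were below all its NCD arrays. Mesothelial markers were called lower in 5 of 5 (summed level 7.92 to 8.15 in HFD and 10.02 to 11.06 in NCD arrays). The 3 measured monocyte markers had mean deviations of −0.17, −0.50 and −0.85 on the HFD arrays, against 0.66, 0.49 and 0.36 on the NCD arrays. For the 6 dendritic cell markers these were −0.16, −0.27 and −0.53 on the HFD arrays, against 0.38, 0.37 and 0.22 on the NCD arrays. On this mean, every HFD array was below every NCD array in both lists, and NCD1 was highest and NCD3 lowest of the chow pools. Gene by gene, that chow order held in 1 of 3 monocyte and 3 of 6 dendritic cell markers. The summed level of the monocyte markers rose instead, at 15.87, 16.86 and 17.34 on NCD1 to NCD3. Most of that sum was Ly6c2, at 15.60, 16.80 and 17.30. Ccr2 (13.24, 12.10 and 12.14) and Plac8 (8.83, 8.23 and 7.31) were highest on NCD1. The summed level of the dendritic cell markers was 12.41, 12.60 and 12.01 on NCD1 to NCD3. No monocyte marker was called, and 1 dendritic cell marker was, Cd209a (−2.99 ± 0.31, adjusted p = 0.00643). Zbtb46 (−1.20) and Ccr7 (−0.37) also had lower means in HFD. Clec9a (0.42), Xcr1 (0.23) and Flt3 (0.03) had higher ones, the last 2 with means below background. The median difference of the dendritic cell markers was −0.17. None of the 9 T and natural killer cell markers or the 5 adipocyte markers was called. B cell markers (4 measured, none called, summed level 11.04 to 11.91 in HFD and 11.10 to 13.54 in NCD arrays) were highest on NCD1. All 4 had the chow order of the 4 inhibitor and feedback genes, with NCD1 highest and NCD3 lowest. None of the 8 neutrophil markers was called. Of these, S100a8 and S100a9 were at 12.83 and 13.52 on HFD3 and between 7.14 and 10.34 on the other arrays. Retnlg (11.41) and Cxcr2 (9.20) were also highest on HFD3. Ly6g, Mpo, Ngp and Camp were not, and of these only Ly6g had a mean above background. The part of these cells and states in the values of the members was not tested.

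**Figure D3:**
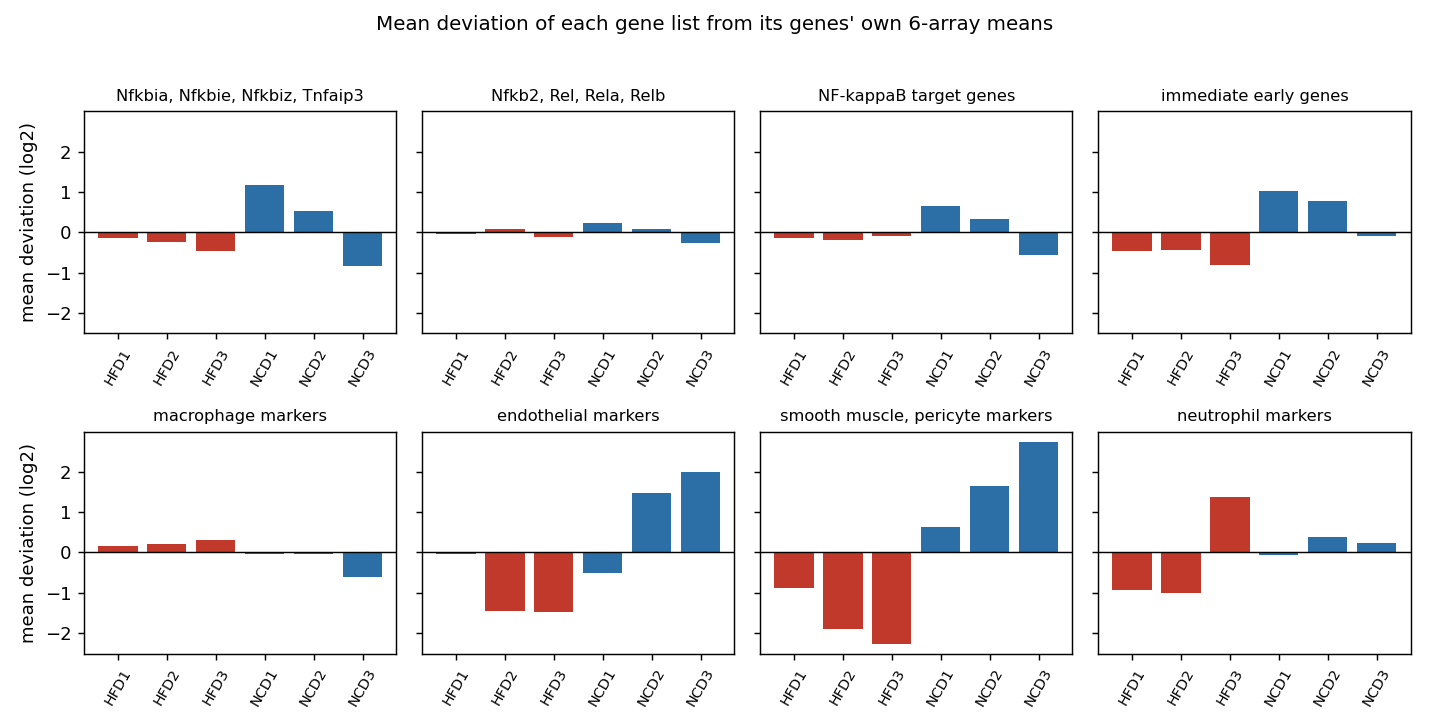
Mean deviation (y axis, log2) of each gene list from its genes' own means over the 6 arrays, with HFD arrays in red and NCD arrays in blue. The inhibitor and feedback genes, the target genes and the immediate early genes are highest on NCD1 and, among chow pools, lowest on NCD3, while endothelial and smooth muscle markers are highest on NCD3.

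Of 42 other measured genes of the pathway, 1 was called, lower in HFD macrophages: Birc2, a ubiquitin ligase of the receptor complexes, with a 1.50-fold lower level (−0.59 ± 0.12, adjusted p = 0.0374). It was called without NCD1 (−0.57, adjusted p = 0.0365) and not without any other array (−0.67 to −0.52, adjusted p of 0.0670 to 0.158), nor with the arrays centred on their medians (−0.50, adjusted p = 0.0589). The other 41 were not called, while 7.83% of all genes were called. The diets did not overlap in 14 of the 42, 10 with all HFD arrays above and 4 below. Over all genes 30.6% did not overlap, 17.6% with all HFD arrays above and 13% below. The median of the 42 was 0.08. The next 4 genes by adjusted p, named after their values were seen, did not overlap between diets. These were Tnip2 (0.49 ± 0.11, adjusted p = 0.0512), Otulin, a linear-ubiquitin deubiquitinase (0.76 ± 0.18, adjusted p = 0.0526), Tnip3 (1.56 ± 0.40, adjusted p = 0.0641) and, with all HFD arrays below, Irak3, an inhibitory member of its kinase family (−0.34 ± 0.10, adjusted p = 0.0972). Of other deubiquitinases and adaptors known to restrain the pathway, Otud7b was at −0.42 ± 0.15 (adjusted p = 0.150), Cyld at −0.02 ± 0.16 (adjusted p = 0.956) and Tnip1 at 0.02 ± 0.09 (adjusted p = 0.936). Tnip proteins are adaptors that bind the product of Tnfaip3. Tnip3 was at 12.96, 13.36 and 13.26 on HFD1 to HFD3, against 12.58, 11.27 and 11.03 on NCD1 to NCD3. The other inhibitor genes were not called with all 6 arrays. Nfkbib was at 0.09 ± 0.13 (adjusted p = 0.759). Bcl3, a nuclear cofactor of the family, was at −0.29 ± 0.16 (adjusted p = 0.348), or −0.46 and called without NCD1 (adjusted p = 0.0314). Nfkbid was at 9.76, 9.86 and 9.76 on HFD1 to HFD3, against 11.66, 10.58 and 8.04 on NCD1 to NCD3 (−0.30 ± 0.84, adjusted p = 0.875). Its range over the chow pools was 3.61, wider than the 3.15 of Tnfaip3.

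Of 49 measured NF-kappaB target genes, 2 rose in HFD macrophages, 7 fell and 40 were not called, at a median of −0.16 beside 0.01 over all genes. Over all genes 4.96% were called higher and 2.87% lower. Among genes above background, as 43 of the 49 were, 13.3% were called in either direction. Plau, the urokinase-type plasminogen activator, rose 6.21-fold (2.64 ± 0.17, adjusted p = 0.00199), and Tnfaip2 rose by 1.02 ± 0.18 (adjusted p = 0.0254). Lower were the adhesion molecule genes Vcam1 (−2.64 ± 0.43, adjusted p = 0.0187) and Icam1 (−1.20 ± 0.27, adjusted p = 0.0475), the death receptor gene Fas (−1.58 ± 0.31, adjusted p = 0.0330) and the growth factor gene Csf1 (−1.53 ± 0.30, adjusted p = 0.0322). Mmp9, a gelatinase, fell by 2.39 (adjusted p = 0.0266), the early response gene Ier3 by 2.26 (adjusted p = 0.0294) and the interferon regulatory factor gene Irf1 by 1.05 (adjusted p = 0.0397). Plau was called without each array in turn. The other 8 called target genes were not called without NCD2 or without HFD2, and without HFD3 Mmp9 alone of these 8 was called. Icam1 was also not called with the arrays centred on their medians (−1.11, adjusted p = 0.0551). Leaving out HFD1, HFD2 or HFD3 gave 4, 1 and 2 called target genes, and leaving out NCD1, NCD2 or NCD3 gave 12, 1 and 10. The median of the 49 was 0.02 without NCD1 and −0.56 without NCD3.

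The target genes that fell did not share 1 pattern over the chow pools. Vcam1, Icam1, Fas and Csf1, which endothelial and stromal cells also make, were highest on NCD3, as the endothelial markers were: Vcam1 stood at 9.73, 8.85 and 8.97 on HFD1 to HFD3, against 11.17, 11.58 and 12.71 on NCD1 to NCD3. Ier3 had the chow order of the inhibitors instead, at 8.81, 8.88 and 8.40 on HFD1 to HFD3, against 11.59, 11.36 and 9.93 on NCD1 to NCD3. Its NCD3 value was still above every HFD array, while those of Nfkbia and Nfkbiz were not. The part of endothelial cells in these differences was not tested.

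Several cytokine targets had a wide chow spread, as did the prostaglandin synthase gene Ptgs2, with an NCD range of 4.65, while Il12b had one of 0.25. Cxcl1, a neutrophil chemokine, was at 11.28, 11.11 and 11.17 on HFD1 to HFD3, against 12.39, 10.93 and 8.94 on NCD1 to NCD3 (0.43 ± 0.78, adjusted p = 0.801). Il6 was at 9.11, 9.27 and 8.23 on the HFD arrays and at 12.27, 11.51 and 8.06 on the NCD arrays. Its difference was −1.74 with all arrays and −3.02 without NCD3, where it was called (adjusted p = 0.0186). Tnf was at 11.14, 10.72 and 10.99 on the HFD arrays and at 11.85, 10.58 and 7.78 on the NCD arrays, so that NCD3 stood apart. Its difference was 0.88 with all arrays (adjusted p = 0.645) and −0.26 without NCD3. Il1b was widely spread over the HFD pools too, at 13.10, 12.22 and 15.39 on HFD1 to HFD3, against 13.48, 13.33 and 10.64 on NCD1 to NCD3 (1.09 ± 1.03, adjusted p = 0.595). So was Ptgs2, at 11.12, 10.89 and 13.20 on HFD1 to HFD3. Both were highest on the pool where S100a8 and S100a9 were highest. Of the 49 target genes, 29 ranged over more than 1 log2 unit on the NCD arrays and 6 on the HFD arrays.

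**Figure D4:**
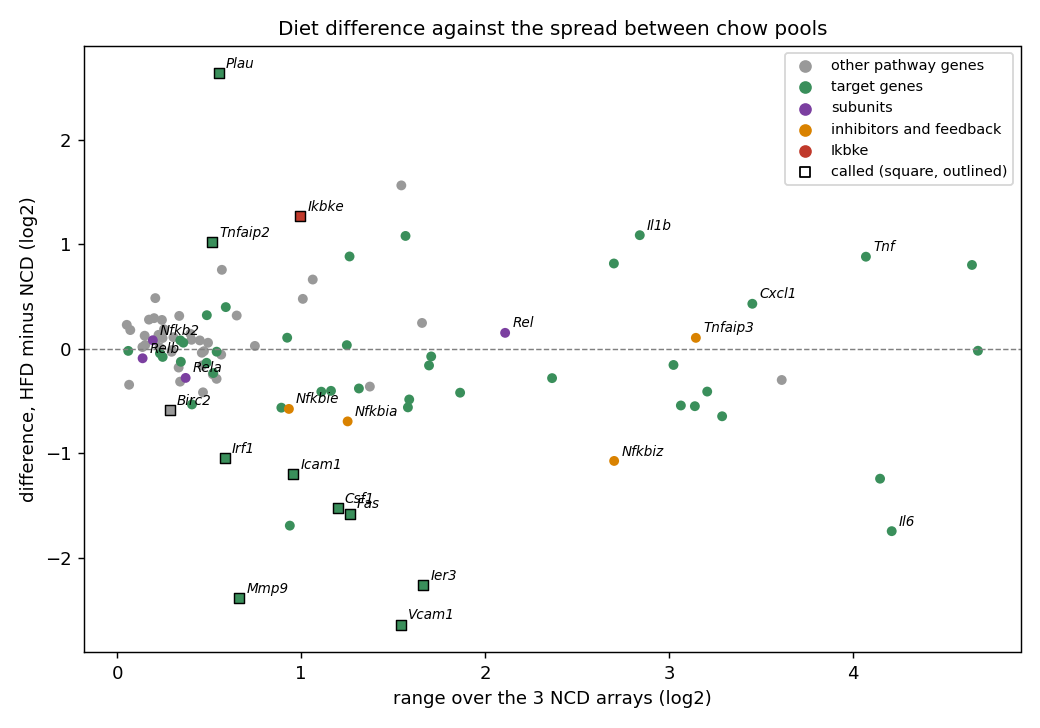
Difference between diets (y axis, log2 HFD minus NCD) against the range over the 3 NCD arrays (x axis, log2) for the members, 42 other pathway genes and 49 target genes, with called genes as outlined squares. Ikbke, at 1.27 with a chow range of 0.99, is the called member, while Tnfaip3, Rel, Tnf and Cxcl1 lie near a difference of 0 to 1 with chow ranges above 2.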

How the data were processed

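The authors deposited log2 expression per transcript cluster for 6 Affymetrix arrays. Per the submitters' processing notes, RMA, Transcriptome Analysis Console 3.1.0.5 and Affymetrix Expression Console 1.4.1.46 were used; their options, the library files and the build are not given in the sources used here. Control probe sets (6732) were left out. Of 65956 clusters, 30604 had 1 gene symbol after repeats were merged, 2146 had several and 33206 none; 827 symbols were updated through Entrez identifiers in RefSeq's gene table. The cluster with the highest mean stood for a gene, which gave 30142 genes. The background level, 6.23 log2, is the mean over arrays of the 95th percentile of 23 antigenomic probe sets.

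Diets were compared in limma 3.58.1 (R 4.3.3; lmFit, eBayes with a mean-variance trend; two-sided p with Benjamini-Hochberg adjustment over all genes). On simulated arrays of this size 67.4% of 2-fold and 91.2% of 4-fold changes were recovered. Arrays have no read depth, so their number limits the precision. The median standard error was 0.118, and those of Tnfaip3 (0.74), Nfkbiz (0.64), Rel (0.49) and Nfkbia (0.31) were larger. The recovered shares were not taken apart for genes with such a spread. An exact permutation test of 3 against 3 arrays cannot give a p below 0.1, so none was used.

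Named genes were all members, the called genes of the pathway and target lists, 8 further genes given whatever their call, and the nearest genes of Ikbke and Nfkbia; other genes were named after their values were seen. Members and lists were chosen with earlier results of these data known. Alternatives changed the normalization between arrays, the variance model, array weights, the filter on dim genes, the row per gene, the replicate block and the arrays left out. Motifs were searched in Python 3.11.15, and figures used matplotlib 3.10.9 and pandas 2.3.3.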

Additional observations from a re-analysis of the deposited data

How the results depend on the processing

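Centring, quantile normalization, the model without a variance trend, array weights, both filters on dim genes and the mean over clusters of a gene left 1 member called, Ikbke (1.24 to 1.36). Fits without 1 array called 0 to 4 members, 0 to 6 other pathway genes, 1 to 12 target genes and 442 to 4713 of all genes; the 4 members, without NCD3, were Ikbke, Nfkbia, Nfkbie and Nfkbiz. Same-numbered HFD and NCD pools did not deviate together (correlations over genes of −0.46, −0.12 and −0.15), and no array correlated best with its own number. With the replicate number as a block, 0 members, 0 other pathway genes, 1 target gene and 144 of all genes were called. The count of other pathway genes called was 3 with median centring, 4 without the trend, 4 with array weights, 4 with genes below background left out and 3 with the lowest 25% left out, against 1; the 3 under median centring were all higher, and Birc2 (adjusted p = 0.0589) and the target gene Icam1 (adjusted p = 0.0551) were not called there. Array weights called 4282 of all genes, against 2359. Over the fits without 1 array, differences ranged across 0 for Rel (−0.38 to 0.67), Tnfaip3 (−0.81 to 0.76), Tnf (−0.26 to 1.77), Cxcl1 (−0.47 to 1.25), Nfkbib (−0.0154 to 0.19) and Ikbkb (−0.0785 to 0.17), each below 0 without NCD3. With array weights Tnfaip3 was at −0.0435. The cause was not tested. Median centring moved the median difference of all genes to 0.10 and gave 2573 genes higher and 693 lower, against 1494 and 865; no member changed sign.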
